A study of Mus musculus with 6 samples.

Results

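The T cell receptor complex was followed through 10 genes in RNA-seq libraries of mouse skin: the CD3 chains Cd3g, Cd3d and Cd3e, the zeta chain Cd247, the receptor constant regions Trdc, Tcrg-C1, Trac, Trbc1 and Trbc2, and the kinase Lck. They were chosen by name from the 33308 genes of the deposited table. Of these, 9 were found by gene name and Tcrg-C1 by its Ensembl identifier, since the table calls it Trgc1. All 10 had a mean count of at least 10 and were tested, and 7 had a mean FPKM (fragments per kilobase of transcript, scaled to library size) of at least 1 over the 6 libraries.

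The libraries came from 3 skin samples of untreated mice (controls 1, 2 and 3) and 3 of mice given osimertinib, which blocks the kinase of the epidermal growth factor receptor, for 42 days. The comparison asks which genes differ in the treated skin. Strain, age, sex, dose, route and body site were not given in the sources used here. The labels do not say whether each sample was a different animal, and the p-values therefore reflect sample-to-sample spread that could be technical. Polyadenylated RNA was sequenced, and the library totals ran from 54112624 to 60719064 counts.

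A T cell recognises its target through a pair of variable receptor chains, either gamma with delta or alpha with beta, which reach the cell surface together with the CD3 gamma, delta and epsilon chains and the zeta chain. The receptor chains have no signalling tail of their own, and Lck phosphorylates the CD3 and zeta tails to start the signal. In mouse epidermis most resident T cells are dendritic epidermal T cells (DETC), which carry an almost invariant gamma-delta receptor and touch keratinocytes, while alpha-beta T cells of skin lie largely in the dermis and around hair follicles.

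Transcripts of the CD3 chains and of the gamma-delta receptor had lower mean levels in osimertinib-treated skin, those of the beta chains had group means closer together, and those of Lck and the alpha chain had higher means. The largest differences were those of Cd3e (3.14-fold lower mean), Trdc (3.07-fold lower), Cd3g (2.96-fold lower) and Tcrg-C1 (2.60-fold lower), while Lck was 1.67-fold higher. Of the 10 genes, 8 had a negative and 2 a positive log2 fold change. None passed the adjusted threshold of 0.05 in edgeR, which called 0 of 19911 genes tested, that is 0%. DESeq2 also called none of the 10, where it called 1075 of 19808 genes, or 5.43%. Its lowest adjusted p among the 10 was 0.0531, for Cd3g. At an unadjusted edgeR p under 0.05, Cd3g, Cd3e and Trdc were lower and no member was higher, against 6.19% of all genes tested that were lower and 7.09% that were higher. The median log2 fold change of the 10 genes was −0.68, beside −0.05 over all genes tested, of which 10790 were lower. It was −0.39 without control 1, −1.05 without control 2 and −0.43 without osimertinib 2. As in any bulk sample, fewer cells of a type and less RNA per cell cannot be told apart.

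**Figure D1:**
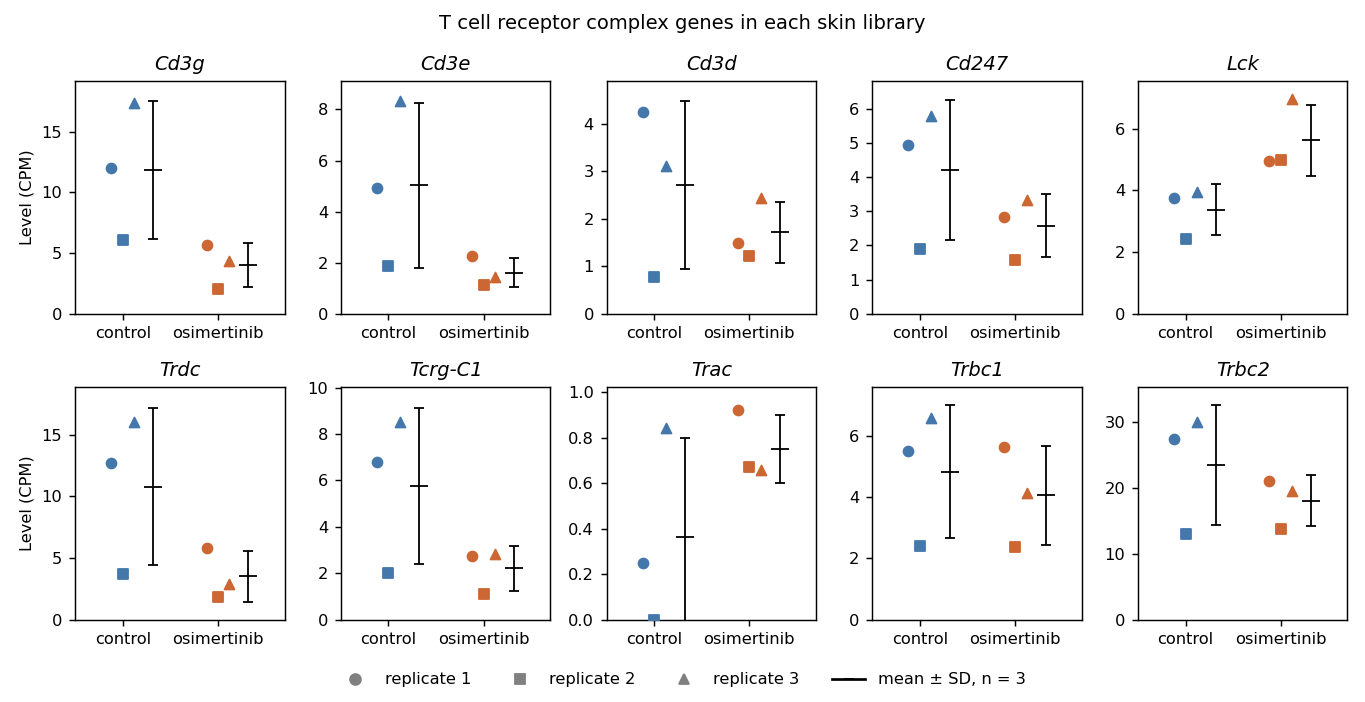
Level of each T cell receptor complex gene in each library, in counts scaled to library size (CPM, scaled with TMM factors), with controls in blue and osimertinib samples in orange. Point shapes give the replicate number, black bars give the mean ± SD of 3 libraries (the bar of Trac is drawn from 0), and Cd3g lies below every control and Lck above every control in all 3 treated libraries.

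The genes of the CD3 gamma, delta and epsilon chains lie side by side on chromosome 9 (GRCm38). Cd3g occupies 44969572 to 44980431 on the minus strand, Cd3d 44981786 to 44987339 on the plus strand and Cd3e 44998740 to 45009622 on the minus strand, and Cd3g and Cd3d are transcribed away from each other from starts 1354 bases apart. The 250 bases before each start are shown because the log2 fold changes of these neighbours ranged from −0.66 to −1.65. The start sites are RefSeq's, and that of Cd3e lies a few bases inside the gene as deposited, so the end of its window does too. The sequences are from RefSeq on GRCm38.p6 and are written 5′ to 3′ on the strand of the gene, at chr9:44980432-44980681 for Cd3g, chr9:44981536-44981785 for Cd3d and chr9:45009612-45009861 for Cd3e. Capitals mark matches, on either strand, to AGATAA (bound by GATA factors), CAGGTG (an E-box of E proteins) and AGGAAG (an ETS core).
Cd3g: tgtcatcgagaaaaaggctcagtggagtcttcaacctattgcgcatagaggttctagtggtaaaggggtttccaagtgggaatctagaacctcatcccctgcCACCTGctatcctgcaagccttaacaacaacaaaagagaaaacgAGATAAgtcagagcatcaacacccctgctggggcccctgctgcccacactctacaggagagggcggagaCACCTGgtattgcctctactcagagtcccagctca
Cd3d: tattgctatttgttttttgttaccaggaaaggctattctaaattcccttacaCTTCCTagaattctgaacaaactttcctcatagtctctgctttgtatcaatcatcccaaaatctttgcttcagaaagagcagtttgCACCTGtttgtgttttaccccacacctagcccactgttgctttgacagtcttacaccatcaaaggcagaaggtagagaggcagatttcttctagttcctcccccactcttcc
Cd3e: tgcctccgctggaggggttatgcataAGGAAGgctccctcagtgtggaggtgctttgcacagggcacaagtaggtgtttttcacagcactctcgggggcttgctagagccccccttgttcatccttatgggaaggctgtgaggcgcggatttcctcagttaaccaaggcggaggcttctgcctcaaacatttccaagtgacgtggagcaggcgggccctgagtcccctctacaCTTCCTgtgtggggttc
The Cd3g window held 1 AGATAA and 2 CAGGTG, the Cd3d window 1 CAGGTG and 1 AGGAAG, and the Cd3e window 2 AGGAAG. None of the 3 windows held ACCACA (a RUNX core) or TATAAA (the TATA box). Over all 32851 RefSeq windows of this length, 9.99% held AGATAA, 17.2% CAGGTG, 29.5% AGGAAG, 14.0% ACCACA and 12.4% TATAAA. The motifs do not overlap one another in these windows, and a match describes letters only.

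Cd3g, the CD3 gamma chain, was at 12.0, 6.06 and 17.4 CPM in controls 1, 2 and 3, and at 5.62, 2.04 and 4.32 CPM in osimertinib samples 1, 2 and 3. Every treated library lay below every control, with the smallest gap between control 2 and osimertinib 1. The means were 11.8 ± 5.66 and 3.99 ± 1.81 CPM (SD, n = 3 each), a log2 fold change of −1.57 ± 0.52 (SE; adjusted p = 0.301 by edgeR). It was the only member with all treated libraries below all controls, an arrangement that 9.43% of all genes tested had.

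Cd3e, the CD3 epsilon chain, was at 4.91, 1.86 and 8.31 CPM in the controls and at 2.24, 1.12 and 1.44 CPM in the treated libraries. The groups overlapped, since control 2 was below osimertinib 1. Its means were 5.03 ± 3.23 and 1.60 ± 0.576 CPM, with a log2 fold change of −1.65 ± 0.59 (adjusted p = 0.333 by edgeR).

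Cd3d, the CD3 delta chain, was at 4.25, 0.779 and 3.11 CPM in the controls, against 1.49, 1.22 and 2.44 CPM in the treated libraries. Control 2 had the lowest value of all 6 libraries, and the log2 fold change of −0.66 ± 0.64 was about the size of its error (adjusted p = 0.731 by edgeR). Cd247, the zeta chain that carries most of the signalling motifs, was at 4.95, 1.88 and 5.78 CPM in the controls, against 2.84, 1.56 and 3.34 CPM in the treated libraries. The treated values lay between or below those of the controls, and the log2 fold change was −0.71 ± 0.51 (adjusted p = 0.613 by edgeR). Cd247 lies on chromosome 1 at 165788681 to 165871153 and shares 6000 bases with Pou2f1 on the opposite strand. Whether strand was used in counting is not given in the sources used here, so reads of the 2 genes may have been mixed. The genes on the strand opposite Cd3e (Gm48719) and Trdc (Trdv5 and Gm43434) had at most 11 and 6 counts in any library.

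The gamma-delta receptor constant regions differed to a similar extent as Cd3g and Cd3e. Trdc, the delta constant region (chromosome 14, 54142851 to 54148868), was at 12.7, 3.70 and 16.0 CPM in the controls and at 5.82, 1.81 and 2.92 CPM in the treated libraries. Control 2 was below osimertinib 1, and the other 2 controls were above all treated libraries. The means were 10.8 ± 6.37 and 3.52 ± 2.07 CPM, with a log2 fold change of −1.62 ± 0.65 (adjusted p = 0.365 by edgeR). Tcrg-C1, the gamma constant region used with the DETC variable segment (chromosome 13, 19214103 to 19217024), was at 6.80, 2.01 and 8.50 CPM in the controls, against 2.74, 1.11 and 2.83 CPM in the treated libraries. Control 2 again lay among the treated values, and the log2 fold change was −1.38 ± 0.62 (adjusted p = 0.407 by edgeR).

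Of the other gamma constant regions, taken up after their values had been seen, Tcrg-C2 had a log2 fold change closer to 0 and Tcrg-C4 one similar to that of Tcrg-C1. Tcrg-C2 was at 1.72, 0.995 and 2.69 CPM in the controls, against 2.26, 0.889 and 1.46 CPM in the treated libraries (log2 fold change −0.23 ± 0.52, adjusted p = 0.920 by edgeR). Its transcript is 94.0% identical to that of Tcrg-C1, so the authors' counting may have divided reads between them in an unknown way. Tcrg-C4 was at 1.27, 0.195 and 1.28 CPM in the controls, against 0.274, 0.437 and 0.498 CPM in the treated libraries. It had a log2 fold change of −1.19 ± 0.74 (adjusted p = 0.544 by edgeR).

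The variable segments of the DETC receptor, Tcrg-V5 and Trdv4, were present at low counts. Tcrg-V5 had 50, 4 and 57 counts in the controls, against 11, 11 and 0 in the treated libraries. Trdv4 had 101, 0 and 93 counts in the controls, against 66, 9 and 7 in the treated libraries. Both were highest in controls 1 and 3, and control 2 lay below osimertinib 1 and 2. Their log2 fold changes of −2.37 ± 1.29 and −1.25 ± 1.51 were within 2 SE of 0 (adjusted p = 0.482 and 0.803 by edgeR).

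Among the alpha-beta receptor genes, Trac had a positive log2 fold change, and those of Trbc1 and Trbc2 were negative but closer to 0 than those of Trdc and Tcrg-C1. Trac, the alpha constant region (chromosome 14, 54220521 to 54224206), had only 14, 0 and 54 counts in the controls, against 54, 43 and 41 in the treated libraries. These are levels of 0.251, 0 and 0.844 CPM, against 0.924, 0.671 and 0.658 CPM. Control 3 was as high as the treated libraries and control 2 had no count, which allows up to 3 counts or 0.0529 CPM before TMM scaling, a limit of counting error only. The log2 fold change of 1.02 ± 1.16 was smaller than its error (adjusted p = 0.784 by edgeR).

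Trbc2, a beta constant region, was at 27.6, 13.0 and 30.0 CPM in the controls, against 21.1, 13.7 and 19.6 CPM in the treated libraries. Trbc1, the other beta constant region, was at 5.51, 2.42 and 6.58 CPM in the controls, against 5.63, 2.39 and 4.14 CPM in the treated libraries. In both genes the treated values fell inside or next to the range of the controls. The log2 fold changes were −0.38 ± 0.35 for Trbc2 and −0.26 ± 0.49 for Trbc1 (adjusted p = 0.717 and 0.896 by edgeR).

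Trbc1 and Trbc2 lie next to each other on chromosome 6, at 41538218 to 41539881 and 41546730 to 41548352, and are near copies, so how the authors' counting divided reads between them is uncertain. A stretch of both transcripts is shown to make this plain, bases 241 to 400 counted from the transcript start in GENCODE M21, with capitals at the bases that differ.
Trbc1: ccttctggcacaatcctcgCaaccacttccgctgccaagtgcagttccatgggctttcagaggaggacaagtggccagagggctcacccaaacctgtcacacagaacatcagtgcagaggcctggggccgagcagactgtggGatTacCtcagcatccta
Trbc2: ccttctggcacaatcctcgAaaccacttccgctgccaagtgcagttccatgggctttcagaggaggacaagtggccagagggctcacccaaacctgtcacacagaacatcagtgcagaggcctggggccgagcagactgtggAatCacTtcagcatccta
The first 259 bases of the 2 transcripts are identical, and 4 bases in the stretch differ, at positions 260, 383, 386 and 389. Over their whole aligned length of 738 positions the transcripts, of 737 and 692 bases, are 81.6% identical. The summed count of both genes was 1843, 715 and 2340 in the controls, against 1561, 1033 and 1477 in the treated libraries. This sum does not depend on how the counted reads were divided between them. The 16 beta variable segments of the deposited table together had 0, 0 and 17 counts in the controls, against 8, 3 and 40. Which T cells the beta constant transcripts came from was not tested.

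Lck, the kinase that starts receptor signalling (chromosome 4, 129548344 to 129558391, minus strand), was the other exception. It was at 3.77, 2.42 and 3.94 CPM in the controls and at 4.95, 4.99 and 6.97 CPM in the treated libraries. Every treated library lay above every control, which 11.0% of all genes tested did. The means were 3.38 ± 0.830 and 5.64 ± 1.15 CPM, with a log2 fold change of 0.74 ± 0.32 (adjusted p = 0.385 by edgeR).

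**Figure D2:**
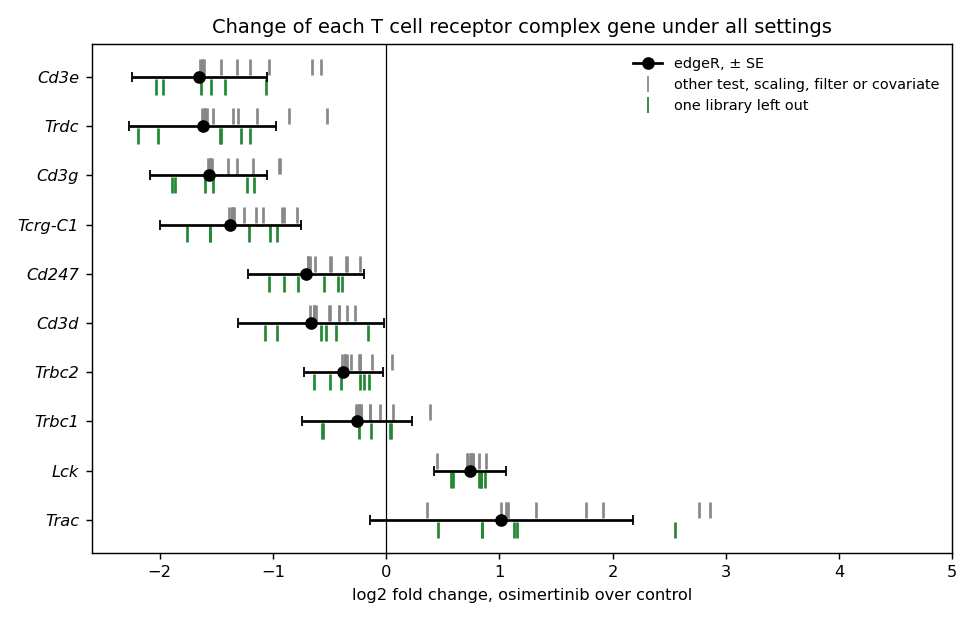
log2 fold change (osimertinib over control) of each T cell receptor complex gene, with black points and bars for edgeR ± SE, grey ticks for other tests, scalings, filters and covariates, and green ticks for fits that leave out 1 library. Cd3e, Trdc, Cd3g and Tcrg-C1 stay below 0 and Lck stays above 0 in all of these fits, while ticks of Trbc1 and Trbc2 fall on both sides of 0.

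Compared per length, as deposited FPKM, the order of the control means was Trbc2 at 29.8 ± 14.9, Trbc1 at 5.68 ± 3.15, Tcrg-C1 at 5.59 ± 3.72, Cd3g at 3.20 ± 1.9 and Trdc at 2.50 ± 1.68 FPKM (SD, n = 3). Then came Cd3d at 1.32 ± 0.918, Cd3e at 1.10 ± 0.819, Lck at 0.981 ± 0.373, Cd247 at 0.694 ± 0.407 and Trac at 0.353 ± 0.431 FPKM. Only the step from Trbc2 to Trbc1 was larger than the SD of either neighbour. In treated skin Trbc2 was again highest at 22.9 ± 4.12 FPKM and Trbc1 next at 4.69 ± 1.71 FPKM. Lck, at 1.68 ± 0.359 FPKM, there stood above Cd3g (1.06 ± 0.445), Trdc (0.786 ± 0.432) and Cd3e (0.338 ± 0.107), which had the lowest mean of the 10.

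Ratios within a library do not depend on its scaling. The log2 ratio of Trdc to Trac counts, with 0.5 added to each, was 5.61, 8.42 and 4.23 in the controls, against 2.64, 1.42 and 2.14 in the treated libraries. The groups did not overlap, and their means of 6.09 ± 2.13 and 2.07 ± 0.614 (SD, n = 3) differed by −4.02 (two-sided exact permutation p = 0.1, the smallest that 3 against 3 samples allow). The size rests in part on control 2, in which Trac had no count, and without it the difference was −2.85. Against the more abundant beta chain, the log2 ratio of Trdc to Trbc2 was −1.12, −1.82 and −0.90 in the controls, against −1.86, −2.92 and −2.74 in the treated libraries, with control 2 and osimertinib 1 nearly equal.

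The gamma-delta constant regions were also set against the CD3 chains. The log2 ratio of Trdc plus Tcrg-C1 to the sum of Cd3g, Cd3d, Cd3e and Cd247 was −0.42, −0.89 and −0.50 in the controls, against −0.51, −1.03 and −1.01 in the treated libraries, so the groups overlapped. Lck stood apart from the chains it acts on. Its log2 ratio to the CD3 sum was −2.80, −2.13 and −3.13 in the controls, against −1.30, −0.25 and −0.73 in the treated libraries, with no overlap. The log2 ratio of the CD3 sum to Ptprc (CD45, a phosphatase of all leukocytes) was 1.17, 0.22 and 0.90 in the controls, against 0.21, −0.04 and −0.73 in the treated libraries, the highest treated value lying just under the lowest control. These ratios other than Trdc to Trac were not tested.

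**Figure D3:**
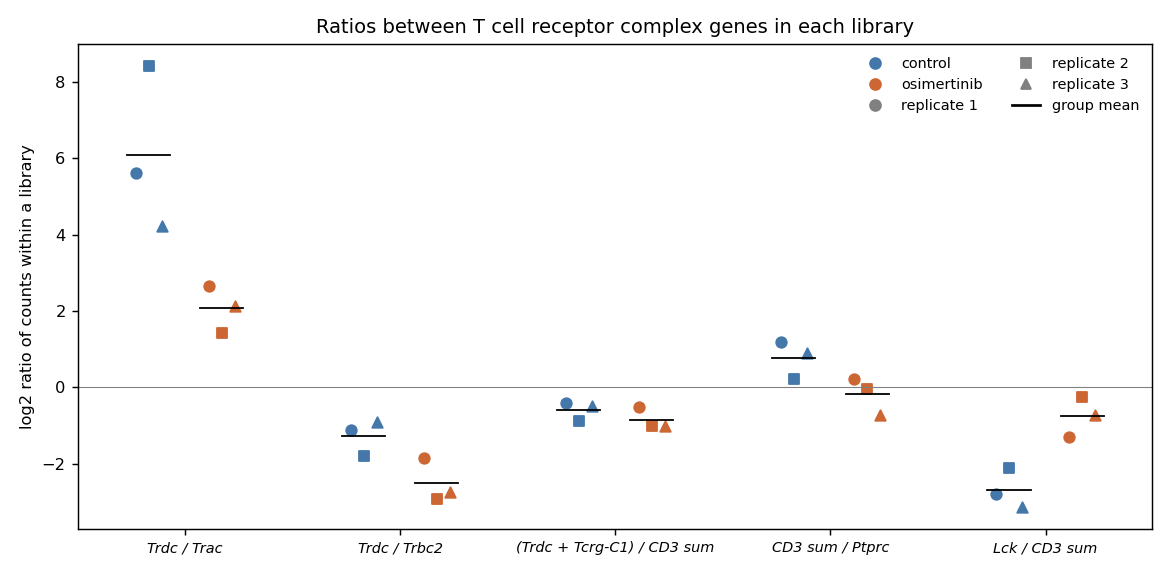
log2 ratios of counts between T cell receptor complex genes within each library, with controls in blue, osimertinib samples in orange, shapes for replicate numbers and black lines for group means. The CD3 sum is Cd3g, Cd3d, Cd3e and Cd247. The groups do not overlap for Trdc to Trac or for Lck to the CD3 sum. They are only just apart for Trdc to Trbc2 and for the CD3 sum to Ptprc, and overlap for Trdc plus Tcrg-C1 to the CD3 sum.

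Over the 6 libraries the members varied with Cd3e to differing degrees. On log2 CPM, Pearson's r of Cd3e was 0.98 with Trdc, 0.96 with Cd3g and 0.94 with Tcrg-C1. It was 0.87 with Cd247, 0.86 with Trbc2, 0.77 with Trbc1, 0.68 with Cd3d and 0.12 with Trac. Lck had an r of 0.82 with Trac and of −0.31 with Cd3e. That of Trbc2 was 0.97 with Cd247, 0.94 with Tcrg-C1 and 0.49 with Trac. These are descriptions over 6 points that share library make-up and hold the group difference. The 6 other genes most like the mean of the 10 over the libraries were Lima1, Galk2, Tmem185b, Myd88, Nfkb1 and Csrnp1, with Pearson's r from 0.992 for Csrnp1 to 0.997 for Lima1, and for each of them the groups overlapped. Lima1 was at 118, 64.9 and 134 CPM in the controls, against 91.8, 69.7 and 88.2 CPM in the treated libraries, which shows the order shared by these genes: controls 1 and 3 highest and control 2 lowest or nearly so.

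Genes that carry the signal onward from the receptor had no common direction. Of 30 listed signalling genes 29 were tested, 19 with a lower and 10 with a higher value, and their median log2 fold change was −0.13, which became −0.33 without osimertinib 3 and 0.07 without control 3. Cblb, a ubiquitin ligase that restrains receptor signalling, was at 64.6, 54.6 and 81.8 CPM in the controls, against 36.2, 28.2 and 39.2 CPM in the treated libraries, with no overlap (log2 fold change −0.96 ± 0.22, adjusted p = 0.206 by edgeR). DESeq2 called it (adjusted p = 0.00493). Nfatc1, a transcription factor switched on by calcium that hair follicle stem cells also express, had the same arrangement (−0.89 ± 0.27). Rasgrp1, which activates Ras, was at −1.32 ± 0.49 with overlapping groups, and Cd6, a T cell surface receptor, had counts of 0, 4 and 0 in controls 1 to 3, against 41, 0 and 76 in osimertinib samples 1 to 3 (4.51 ± 1.96). Osimertinib 2, like controls 1 and 3, had no Cd6 count.

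Coreceptors and costimulatory receptors, 15 tested of 16, had 10 lower and 5 higher values with a median of −0.07, which became −0.34 without osimertinib 3 and 0.25 without control 3. Icos, a costimulatory receptor of activated and regulatory T cells, was at 0.700, 0.800 and 0.875 CPM in the controls, against 3.30, 1.31 and 5.89 CPM in the treated libraries (log2 fold change 2.14 ± 0.58, adjusted p = 0.252 by edgeR, and adjusted p = 0.0117 by DESeq2). Every treated library lay above every control. Tigit, an inhibitory receptor, was at 0.987, 0 and 0.688 CPM in the controls and had no count in any treated library. Set against 3 counts over the treated group, its pooled level was at least 35.6-fold lower, but control 2 had no count either (adjusted p = 0.322 by edgeR and 0.0407 by DESeq2). Cd96, a receptor for nectins, and Cd2, an adhesion receptor, were at −2.39 ± 0.89 and −1.42 ± 0.60 with overlapping groups. Cd4 and Cd8a, named here as the defining coreceptors after their values were seen, stayed under 1 CPM in all 6 libraries.

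Genes of T cell subsets and homing, 17 tested of 18, had 9 lower and 8 higher values with a median of −0.22, which became −0.42 without osimertinib 3 and 0.19 without control 3. Lef1 and Tcf7, transcription factors of naive T cells that the growing hair follicle uses as well, were higher in every treated library than in every control, at 3.52 ± 0.67 and 1.28 ± 0.35 (adjusted p = 0.172 and 0.258 by edgeR, and called by DESeq2). A list of 15 hair shaft and root sheath genes had a positive log2 fold change in 15 of 15, with summed levels of 10.6, 379 and 13.3 CPM in the controls, against 1466, 8108 and 945 CPM in the treated libraries. The part of these genes in the values of Lef1, Tcf7 and Nfatc1 was not tested. Ikzf2, a transcription factor of regulatory and innate-like T cells, was at −1.37 ± 0.47, and S1pr1, a receptor for exit from tissue that vessels also express, at −0.67 ± 0.31, both with overlapping groups.

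Among genes of gamma-delta T cells and DETC outside the receptor complex, Gzmc and Klrk1 of cell killing had lower values and Il17f and Sox13 higher ones. Of 29 listed, 28 were found and 27 tested, 19 with a lower and 8 with a higher value (median −0.50). At an unadjusted edgeR p under 0.05, 6 were lower and 3 higher, against 6.19% lower and 7.09% higher among all genes tested. The median was −0.29 without osimertinib 2, −0.76 without osimertinib 1 and −0.98 without osimertinib 3. Gzmc, a granzyme of the killing granule, was at 5.78, 2.01 and 2.14 CPM in the controls, against 0.514, 0.203 and 0.369 CPM in the treated libraries. All treated libraries were below all controls, with a log2 fold change of −3.19 ± 0.62 (adjusted p = 0.174 by edgeR and 4.14e-05 by DESeq2). Klrk1, the activating receptor NKG2D that DETC use against stressed keratinocytes, was at 3.14, 1.67 and 3.80 CPM against 1.30, 0.406 and 0.931 CPM, again with no overlap (−1.71 ± 0.55, adjusted p = 0.297 by edgeR and 0.0480 by DESeq2).

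Il17f, an interleukin 17 family cytokine of gamma-delta and helper T cells, was at 0.0717, 0.260 and 0.313 CPM in the controls, against 2.24, 1.19 and 3.29 CPM in the treated libraries. Every treated library lay above every control (3.37 ± 0.69, adjusted p = 0.174 by edgeR and 0.000137 by DESeq2). Sox13, a transcription factor of the gamma-delta lineage that makes interleukin 17 and of some other cells, was at 11.4, 12.5 and 13.2 CPM against 18.8, 19.8 and 20.9 CPM (0.68 ± 0.17, adjusted p = 0.229 by edgeR and 0.00759 by DESeq2). Il17a itself, named after its values were seen, was at 0, 0.627 and 0.875 CPM against 0.668, 0.390 and 3.15 CPM, with overlapping groups.

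**Figure D4:**
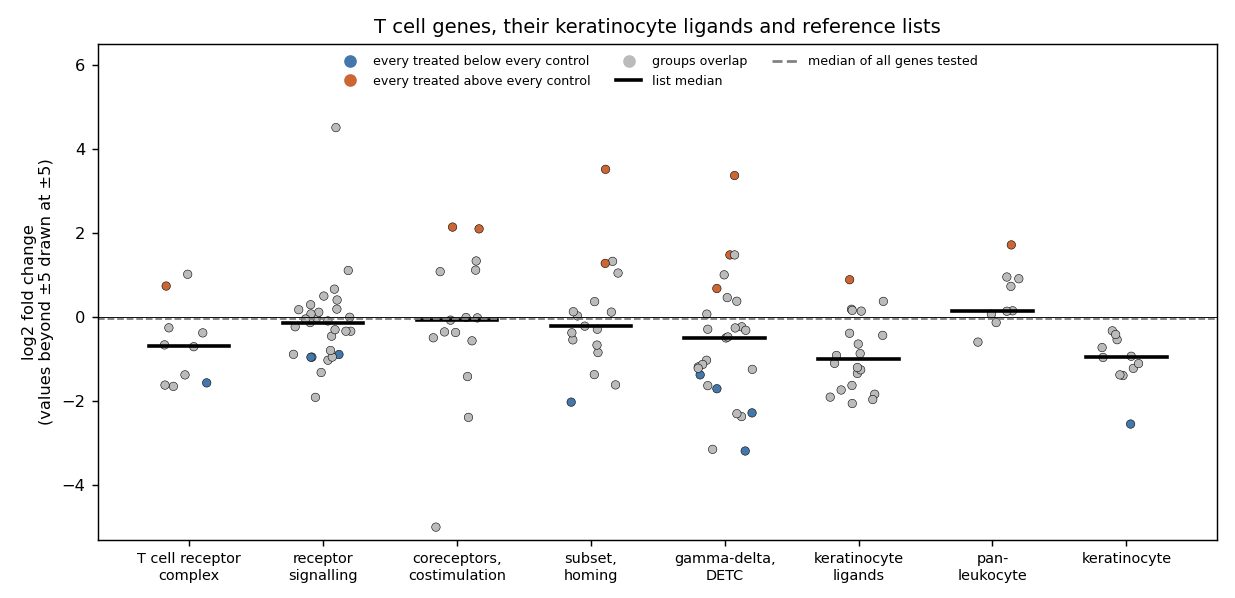
log2 fold change (osimertinib over control) of each tested gene in 8 lists, with blue points where every treated library was below every control, orange points where every treated library was above, and grey points where the groups overlapped. Black bars give list medians, from −1.01 for the keratinocyte ligands to 0.15 for pan-leukocyte genes, and the dashed line gives −0.05, the median of all genes tested.

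Keratinocyte genes that DETC respond to mostly had negative log2 fold changes. Of 20 such ligands, growth factors and adhesion genes, 15 had a lower and 5 a higher value, with a median of −1.01. With the keratinocyte score as a covariate this median was −0.27. At an unadjusted edgeR p under 0.05, 7 were lower and 1 higher, against 6.19% lower and 7.09% higher among all genes tested. The Skint genes encode butyrophilin-like keratinocyte proteins, among them Skint1, which is needed for DETC selection. The Skint genes had a negative log2 fold change in 11 of 11, and 6 of the 7 lower genes just counted were Skint genes. Their summed level was 272, 86.5 and 223 CPM in the controls, against 116, 46.9 and 33.5 CPM in the treated libraries, so that control 2 lay below osimertinib 1 as it did for Trdc. Skint10 and Skint4 were at −1.96 ± 0.77 and −1.26 ± 0.49, and the keratinocyte chemokine Ccl27a at −1.20 ± 0.44 (adjusted p = 0.356, 0.357 and 0.336 by edgeR). Skint1, named after its values were seen, was at −0.64 ± 0.42 (adjusted p = 0.565 by edgeR), the smallest difference of the 11 Skint genes. Tgfb1, a cytokine that holds T cells in the epidermis, was higher in every treated library, at 17.8, 17.1 and 25.4 CPM against 35.1, 40.1 and 36.5 CPM (0.89 ± 0.21, adjusted p = 0.206 by edgeR and 0.00757 by DESeq2).

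The make-up of the skin pieces differed between the libraries. All 11 keratinocyte markers had a negative log2 fold change (median −0.96, which was −0.53 without osimertinib 3 and −1.57 without osimertinib 1). Their share of the count was 2.87%, 1.27% and 5.05% for controls 1, 2 and 3, against 2.38%, 1.30% and 1.21% in the treated libraries. Krt15, a keratin of basal and follicle stem cells, was at −2.55 ± 0.65 and Krt14, the marker with the highest mean FPKM, at −0.33 ± 0.60. The share of skeletal muscle genes was 5.14%, 15.3% and 0.0541% in the controls, against 8.28%, 5.02% and 7.99% in the treated libraries. Control 3, with the most keratinocyte and least muscle RNA, had the highest Cd3g, Cd3e, Trdc and Tcrg-C1, and control 2, with the most muscle RNA, had the lowest of the controls. With the muscle score as a covariate in edgeR, the log2 fold changes were −1.17 for Cd3g, −1.04 for Cd3e, −1.14 for Trdc and −0.90 for Tcrg-C1. With the keratinocyte score as a covariate, an alternative added after the data were seen, they were −0.93, −0.65, −0.52 and −0.79, and that of Lck was 0.71. Without control 3 the values of Cd3g, Cd3e and Trdc were −1.17, −1.06 and −1.20, and without control 2 they were −1.86, −2.03 and −2.01, with adjusted p of 0.155, 0.138 and 0.156 by edgeR. Beyond these values, the part of keratinocyte and muscle RNA in the T cell differences was not tested.

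Leukocyte genes as a whole had a median near 0. Of 9 pan-leukocyte genes 7 had a positive log2 fold change (median 0.15, which became −0.03 without osimertinib 3 and 0.53 without osimertinib 2), and their summed level was 219, 159 and 305 CPM in the controls, against 316, 156 and 443 CPM in the treated libraries. Ptprc was at 11.6, 9.08 and 18.5 CPM against 10.6, 6.10 and 19.1 CPM (−0.13 ± 0.47, adjusted p = 0.960 by edgeR). With Ptprc as a covariate the log2 fold changes were −1.32 for Cd3g, −1.32 for Cd3e, −1.31 for Trdc and 0.82 for Lck. Langerhans and dendritic cell genes, a list that includes genes of dermal cells, had 8 lower and 4 higher of 12. Cd209a, a lectin of dermal dendritic cells, was lower in every treated library (−1.09 ± 0.27), and the integrin Itgax (CD11c) was higher in every treated library (1.73 ± 0.54). Cd207, the langerin of Langerhans cells, was at 34.8, 8.80 and 39.3 CPM against 20.3, 6.23 and 6.76 CPM.

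**Figure D5:**
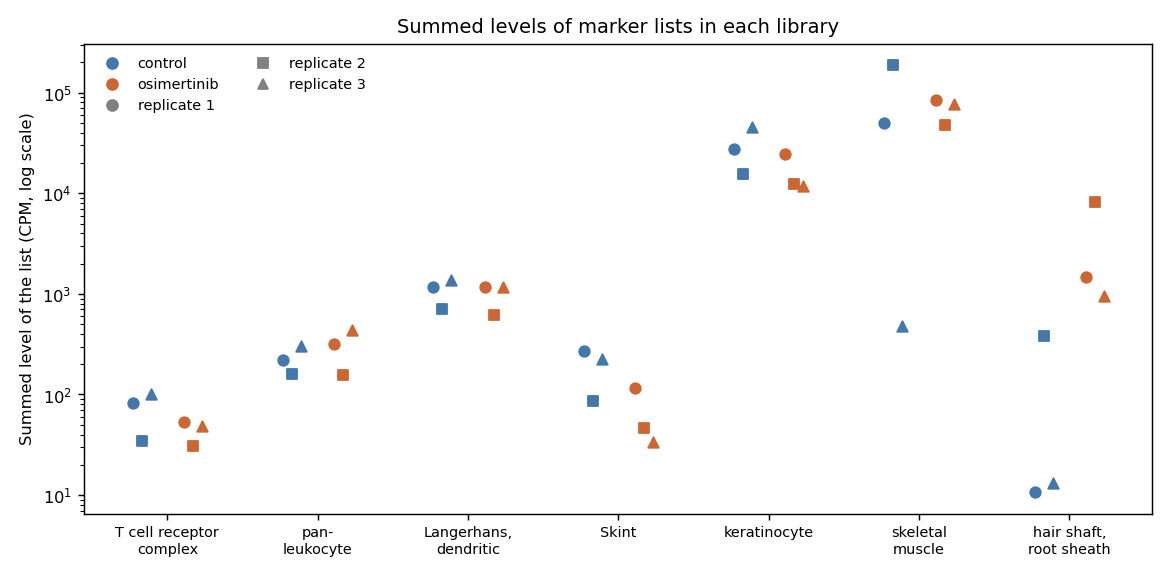
Summed levels, in CPM on a log scale, of the T cell receptor complex genes and of 6 other marker lists in each library, with controls in blue, osimertinib samples in orange and shapes for replicate numbers. Control 3 has 483 CPM of muscle genes, below the 47342 to 187296 CPM of the other libraries, and the hair list is higher in every treated library than in every control.

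Markers of other cells that share genes with T cells were read in the same way. Of 11 NK and innate lymphoid genes found, 7 stayed under 1 CPM in all libraries, among them Ncr1, the receptor NKp46, with 0 to 0.0625 CPM. Their summed level, most of it Areg and Il18r1, was 8.41 to 37.2 CPM in the controls, against 8.36 to 31.6 CPM in the treated libraries, with 4 lower and 1 higher of 5 tested, led by Prf1 (−2.22 ± 0.94), the perforin of killer cells that DETC also make. Genes of immature thymocytes were near 0, with Rag1, Rag2, Dntt and Ptcra at no more than 0.177 CPM in any library. Of 12 B and plasma cell genes, 9 stayed under 1 CPM in all libraries and Cr2 and Fcer2a had no count. Their summed levels, most of them Ighm, were 21.2 to 67.5 CPM in the controls, against 11.0 to 40.0 CPM in the treated libraries. Among 7 tested, 5 had a lower and 2 a higher value, with log2 fold changes from −1.33 to 3.24. The median was −0.52, which became 0.28 without control 2. All treated libraries lay below all controls for 1 of these genes and above them for 1. Of 6 lymph node genes found, Glycam1, Madcam1 and Chst4 did not exceed 0.151 CPM in any library, and the summed level was 7.58 to 21.5 CPM against 7.26 to 17.9 CPM. Of the 3 that were tested, 1 had a lower and 2 a higher value (median 1.55). Ccl19, a chemokine of the T cell zone, was at 0.395, 0.887 and 0.781 CPM in the controls, against 1.85, 2.15 and 4.03 CPM in the treated libraries. Every treated library lay above every control (1.96 ± 0.50, adjusted p = 0.239 by edgeR and 0.0103 by DESeq2), and Cxcl13, a chemokine of the follicles, was at 1.55 ± 0.64 with overlapping groups. Neutrophil genes were higher in 5 of 6 tested, with summed levels of 1.20 to 22.6 CPM in the controls, against 67.8 to 551 CPM in the treated libraries, nearly all of it S100a8 and S100a9, which stressed keratinocytes also make. The part of these cells in the values of the T cell receptor genes was not tested.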

How the data were processed

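The deposited table holds raw counts for each gene and, per the file headers, FPKM values that the authors computed. Cutadapt 1.9 and the genome build GRCm38 are named in the submitters' processing notes. The aligner, the counting tool, the use of strand and the use of the molecular identifiers that the labels' protocols describe were not given in the sources used here. A further 6 columns of values match no sample and were not used. Of the 33308 genes, 33211 had an identifier in GENCODE M21. All rows name a gene.

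Genes with a mean count of at least 10 over the 6 libraries, 19911 in all, were compared on the deposited counts by edgeR 4.0.16 (R 4.3.3; glmQLFit, glmQLFTest, TMM factors, no covariate). Tests were two-sided, p-values were adjusted by Benjamini-Hochberg over all genes tested, and the threshold was 0.05. A fold change is the treated over the control level. Levels are CPM with TMM factors, and errors are SD over 3 libraries or the SE of the log2 fold change. That SE was derived from the test, as the size of the log2 fold change over the square root of the F statistic. The scripts were tested on simulated data. List scores used as covariates are means of centred log2 CPM (prior count 2). Alternatives were DESeq2 1.42.0, limma 3.58.1 on log2 FPKM, other scalings and filters, covariates, the replicate number as a block, and leaving out each library.

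The members and the gene lists were chosen with earlier results of these data known, so no set test and no p over the members alone is given. Genes named are the 10 members, Ptprc, up to 4 genes of smallest p in each described list, for lists of other cells also the most abundant gene, and the 6 genes most like the members. Variable segments, further constant regions, defining markers and genes at or near 0 were added after their values were seen. Of the lists of other cells, macrophage, mast cell, fibroblast, endothelial and adipocyte genes are given in the closing section. A gene that the naming rule takes is not reported here.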

Additional observations from a re-analysis of the deposited data

How the results depend on the processing

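No T cell receptor complex gene was called in any of the 17 alternatives. The number of genes called among all tested was 0 with edgeR, 1075 with DESeq2, 5 with limma on log2(FPKM + 1) and 10 with limma on log2(FPKM + 0.1). The log2 fold changes of Cd3g, Cd3e, Cd3d, Cd247, Trdc and Tcrg-C1 stayed negative and those of Lck and Trac positive in every alternative that gave a value. That of Trbc1 became 0.063 with a muscle covariate and 0.39 with the keratinocyte score, and ran from -0.57 to 0.046 when 1 library was left out. That of Trbc2 became 0.053 with the keratinocyte score. The cause was not tested. The median over the members was -0.38 with the muscle covariate, -0.42 with the keratinocyte score, -0.25 with limma on log2(FPKM + 1) and -0.42 with limma on log2(FPKM + 0.1). The lowest adjusted p of any member was 0.0531, for Cd3g by DESeq2, which gave 0.0847 for Cd3e. The labels do not say whether replicate numbers pair the samples. The correlations of same-numbered libraries' deviations were 0.11, 0.01 and -0.08, which cannot settle this with 3 samples per group. With the replicate block the median over the members was -0.52 and 0 members were called. For the Trdc to Trac ratio, the mean difference within same-numbered pairs equals the difference of the group means, -4.02, by construction. It therefore cannot show whether pairing matters. That ratio differed by -4.80 to -3.68 with other pseudocounts. The counts of Trac, 0 to 54 per library, limit what can be said of the alpha chain.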

Other observations

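Other immune and stromal cells of the skin pieces, which the comparisons above do not use, had log2 fold changes of both signs. Of 12 macrophage genes 8 had a lower and 4 a higher value (median −0.05, which became −0.44 without osimertinib 3 and 0.31 without osimertinib 2). The scavenger receptor Cd163 was lower in every treated library than in every control (log2 fold change −1.14 ± 0.35, adjusted p = 0.286 by edgeR). Of 7 tested mast cell genes 4 were lower and 3 higher (median −0.24, which became −0.41 without osimertinib 1 and 0.12 without osimertinib 2). Mrgprb2, a receptor of connective tissue mast cells, was at 13.5, 5.73 and 21.3 CPM in the controls, against 4.09, 0.765 and 0.610 CPM in treated skin (−2.89 ± 0.89, adjusted p = 0.283 by edgeR and 0.0109 by DESeq2), while the protease Cpa3 was at −0.29 ± 0.38. Kit, which mast cells share with pigment cells, was at 3.34 ± 0.64 with every treated library above every control (adjusted p = 2.11e-05 by DESeq2).

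All 10 adipocyte genes had a negative log2 fold change (median −0.80, which was −0.22 without control 2, −1.29 without control 3 and −1.24 without osimertinib 3), led by Plin1 of the lipid droplet coat (−1.30 ± 0.72), with summed levels of 2627, 4078 and 547 CPM in the controls, against 1073, 1151 and 2271 CPM in treated skin. Of 9 fibroblast genes 5 were lower and 4 higher (median −0.03), and of 9 endothelial genes 6 were lower and 3 higher (median −0.17). Without osimertinib 3 these medians were −0.59 and −0.61, and without osimertinib 2 they were 0.04 and 0.07. Lyve1, of lymphatic vessels, was at −1.47 ± 0.49 and lower in every treated library. None of the genes of these lists passed in edgeR after adjustment, where 0 of all 19911 genes tested passed. DESeq2, which called 1075 of 19808 genes or 5.43%, called 1 macrophage gene, which was higher. Among mast cell genes it called 1 lower and 1 higher. It called no adipocyte, fibroblast or endothelial gene.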
